A study of Mus musculus with 24 samples.

Results

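The genes described here are the 36 aminoacyl-tRNA synthetases of the mouse, 20 that charge tRNA in the cytosol and 16 that do so in mitochondria. They were picked by symbol out of 29072 named genes in the deposited table, and a symbol ending in 2 marked a mitochondrial enzyme. For each symbol 1 transcript entry was read, RefSeq messenger entries first and then the one with the highest mean level. The cells were primary brite adipocytes, that is, white fat cells with the thermogenic character of brown fat, raised from stromal-vascular cells of the inguinal depot of 129SvEv mice. They were induced for 2 days, differentiated for 1 day with rosiglitazone, which every group received, and then transfected at 50 nM with a gapmer containing locked nucleic acids, which pairs with its target RNA and lets RNase H cut it. Knockdown cells (KD) received a gapmer against the long noncoding RNA Ctcflos and control cells (NC) a nontargeting one, and cells were collected after 24 h or 72 h. With 6 libraries in each group, there were 4 groups. The study calls the replicates of its transcriptome experiment biological, but the labels name neither the animals nor the cultures behind a library. The p-values therefore measure the spread between these libraries, and part of it may be technical. Effects of a gapmer itself cannot be told apart from those of losing its target.

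Aminoacyl-tRNA synthetases join each amino acid to its tRNA and thereby set the meaning of the codons. The cytosolic and mitochondrial compartments use mostly separate nuclear genes, with Kars and Gars as the known exceptions that supply both from a single gene. Several cytosolic enzymes sit together with the scaffold proteins Aimp1, Aimp2 and Eef1e1 in the multisynthetase complex. Many cytosolic synthetase genes are known targets of ATF4, the transcription factor of the integrated stress response, and mitochondrial synthetases are needed to translate the respiratory chain subunits that mitochondria encode.

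Levels are given as RPKM, reads divided by transcript length and by the mapped total, scaled between libraries by a trimmed mean of log ratios. Depth, recovered from the steps of the RPKM values, lay between 1391832 and 5926375 mapped reads (median 4009998). The highest total, that of NC 72h replicate 6, may be counted double because its steps may be worth 2 per read, and the next highest was 5423840. The values of NC 72h replicates 2 and 3 differed by less than the sampling noise, and their mean entered as 1 sample, so that NC 72h had n = 5. Ctcflos, listed as 1300015D01Rik, was at 0.233 ± 0.349 RPKM (SD, n = 6) in KD 24h against 1.70 ± 0.934 (n = 6) in NC 24h, and at 0.299 ± 0.354 (n = 6) in KD 72h against 2.78 ± 0.921 (n = 5) in NC 72h. This entry, the highest of 6 under that symbol, stands for isoform tr3, had at most 21 reads in a library and was too low to be tested. The entry of isoform tr1 was at 0.263 ± 0.404 RPKM in KD 24h against 0.4495 ± 0.259 in NC 24h, with overlapping groups, and at 0.110 ± 0.197 in KD 72h against 1.57 ± 1.06 in NC 72h. The study used gapmers against tr1 and against tr3 with tr4, and the labels do not say which one was given here. The paper states that its global transcriptome work centred on tr1, and its differentially expressed genes at 24 h and 72 h are those of the gapmer against tr1. Adipocyte markers were abundant in every library, although 4 of 6 tested were called lower at 24 h and 3 of 6 at 72 h. Fabp4, also on that list, was not among those tested at either time. The 4 endothelial and 4 epithelial markers, by contrast, had medians under 1 RPKM in every group. Brite markers were lower in knockdown cells, with 4 of 5 called at 24 h and 5 of 5 at 72 h. Of the macrophage markers Csf1r was called higher at both times and Lyz2 lower at 72 h, and Tagln of smooth muscle was lower at 72 h. Of 3 preadipocyte markers tested at 72 h, Cd34 was called higher, with at most 10 reads in an NC 72h library. Pdgfra and Ly6a were not called, at log2 fold changes of -0.30 ± 0.20 and 0.27 ± 0.20 (SE), and Dlk1 and Dpp4 were too low to be tested. The summed macrophage markers ran from 2.62 to 17.9 RPKM in KD 24h, 4.66 to 26.6 in NC 24h, 5.50 to 10.6 in KD 72h and 7.44 to 29.6 in NC 72h, and Ptprc had a median under 1 RPKM in every group. The summed smooth muscle markers ran from 185 to 867, 504 to 1476, 268 to 370 and 357 to 1081 RPKM in the same order, with Myh11 under 1 RPKM throughout. The part of these markers in the results on the synthetases was not tested. Fewer cells of a type and less RNA per cell cannot be told apart in such bulk libraries. Once group means were taken off, the libraries fell into 2 clusters of 16 and 8, and the smaller one held 2 libraries of every group. Each called member is therefore given within both clusters too.

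The cytosolic genes had higher levels per length than the mitochondrial ones, on a scale that lowers long transcripts because reads came from the 3′ ends only. In NC 24h the median over the 20 cytosolic genes of the mean level was 19.9 RPKM, from 1.08 for Vars to 56.0 for Kars. The 16 mitochondrial genes had a median of 3.81 RPKM in the same group, from 0.556 for Vars2 to 33.3 for Fars2. In NC 72h the medians were 18.5 and 3.45 RPKM, and Fars2 was again the highest mitochondrial gene at 39.3 RPKM. In both knockdown groups that place was taken by Lars2, the mitochondrial leucyl enzyme, at 27.8 RPKM in KD 24h and 24.6 RPKM in KD 72h.

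At 24 h, Rars, Nars, Kars and Eprs were higher and Farsb was lower in knockdown cells among the 20 cytosolic genes, and Fars2 and Rars2 were lower among the mitochondrial genes. A gene was called at an adjusted p-value under 0.05 in limma after Benjamini-Hochberg correction over all entries. All cytosolic genes and 15 of 16 mitochondrial genes passed the filter on low values, Vars2 with 4 to 17 reads per library being the exception. The 7 called members made up 20% of the 35 tested, against 23.7% of the 9978 genes tested in all, so that the synthetases as a set were called about as often as other genes. By direction, 4 members were higher (11.4%) and 3 lower (8.57%), beside 11.7% and 12.0% of all genes. The median log2 fold change was 0.14 over the cytosolic and -0.03 over the mitochondrial genes, beside 0.0017 over all genes.

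At 72 h, Rars, Kars, Nars, Sars and Hars were higher among the cytosolic genes and none of these was lower, and Fars2 and Rars2 were again lower. All 36 members were tested. The 7 calls were 19.4% of them, against 23.3% of the 10471 genes tested. The 5 higher members made 13.9% beside a background of 10.8%, and the 2 lower ones 5.56% beside 12.5%. Within the cytosolic class the higher calls were 25% of 20 genes, a count too small to set the class apart from other genes. Median log2 fold changes were 0.23 and -0.06 for the cytosolic and mitochondrial classes, with an all-gene median of 0.01. Above 0 were 16 of 20 cytosolic and 6 of 16 mitochondrial genes. The other 4 cytosolic genes (Dars, Farsb, Gars and Lars) changed sign on the deposited scale. That scale, without further scaling, lifted all genes to a median of 0.25 at 72 h, and these changes of sign follow from the shift. With it 12 members were called, 10 higher and 2 lower, and calls over all genes were 2593 higher and 629 lower in place of 1136 and 1308.

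**Figure D1:**
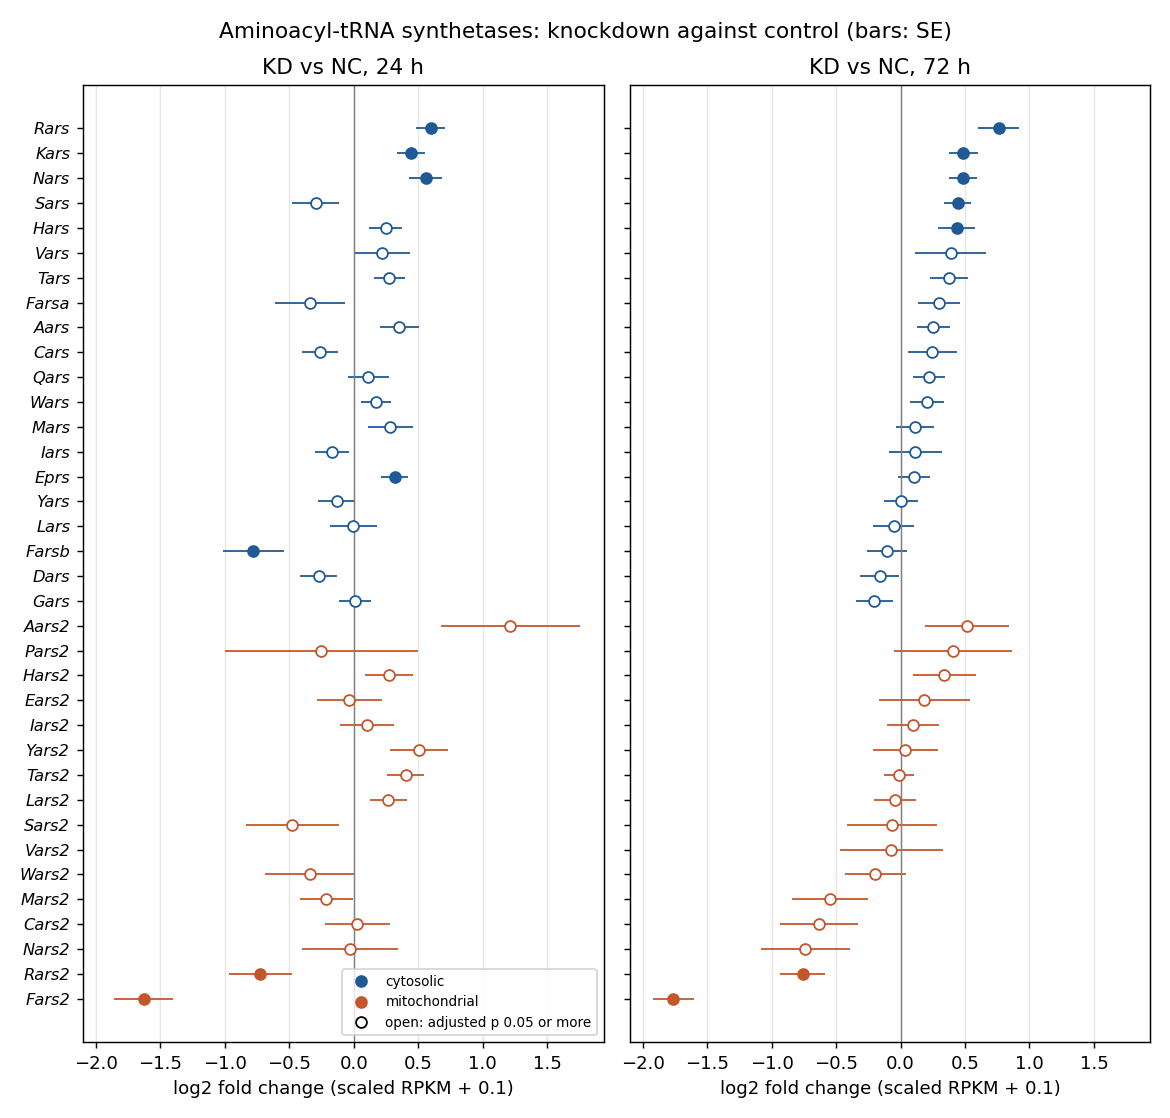
Log2 fold change of each synthetase (x axis) in KD against NC cells at 24 h (left) and 72 h (right), with bars for the standard error, cytosolic genes in blue and mitochondrial genes in orange, filled where called. Fars2 lies lowest at both times at -1.63 and -1.76, and Rars lies highest among the called genes at 0.60 and 0.76. Vars2 was not tested at 24 h.

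Rars, the cytosolic arginyl enzyme, is a member of the multisynthetase complex. Its level in KD 24h had a lowest value of 42.7, a median of 55.2 and a highest value of 62.3 RPKM, whereas NC 24h ran from 32.5 through 36.2 to 41.2 RPKM. In KD 72h the same 3 values were 50.4, 58.5 and 63.6 RPKM, and the 5 NC 72h samples were at 22.8, 31.4, 35.8, 38.6 and 48.3 RPKM. The groups did not overlap at either time. Log2 fold changes were 0.60 ± 0.11 (SE, adjusted p = 0.0028) and 0.76 ± 0.16 (adjusted p = 0.0035), that is, 151.3% and 169.4% of the control level. In the larger cluster they were 0.65 and 1.00, and in the smaller cluster alone 0.49 (adjusted p = 0.067) and 0.37 (adjusted p = 0.23).

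Kars, the lysyl enzyme of the same complex and of both compartments, had the highest level per length of any synthetase in every group. In reads Eprs came before it in every group, with means of 565 against 461 in NC 24h and 680 against 619 in KD 24h. KD 24h ran from 62.5 to 87.5 with a median of 77.1 RPKM, and NC 24h from 49.5 to 60.9 with a median of 56.7 RPKM. KD 72h ran from 52.4 to 70.5 with a median of 63.8 RPKM, and the 5 NC 72h samples were at 36.9, 41.3, 44.3, 46.5 and 50.4 RPKM. Every knockdown library lay above every control sample of its time. The log2 fold change was 0.44 ± 0.11 (adjusted p = 0.011) at 24 h and 0.49 ± 0.11 (adjusted p = 0.0073) at 72 h. Within the larger cluster it was 0.50 and 0.55, and within the smaller one 0.31 (adjusted p = 0.18) and 0.34 (adjusted p = 0.22). In control cells Kars was lower at 72 h than at 24 h, from 56.0 ± 4.15 RPKM (SD, n = 6) to 43.9 ± 5.09 RPKM (n = 5), and KD 72h cells held 61.8 ± 7.61 RPKM (n = 6).

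Nars encodes the cytosolic asparaginyl enzyme and is commonly listed as an ATF4 target. KD 24h ran from 27.6 to 40.1 with a median of 37.0 RPKM, and NC 24h from 19.2 to 27.1 with a median of 24.2 RPKM. At 72 h the knockdown values ran from 30.8 to 39.7 with a median of 34.6 RPKM, and the control samples were at 21.5, 22.6, 24.5, 27.4 and 28.1 RPKM. There was again no overlap at either time, although at 24 h the gap between the lowest knockdown and the highest control value was small. The log2 fold changes were 0.56 ± 0.13 (adjusted p = 0.0071) and 0.48 ± 0.11 (adjusted p = 0.0067). The larger cluster gave 0.67 and 0.54, and the smaller cluster 0.33 (adjusted p = 0.33) and 0.38 (adjusted p = 0.22). Of the 7 transcript entries of Nars tested, 5 were higher at each time, and the others reached down to -0.88 and -0.96 without being called.

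Eprs, which joins the glutamyl and prolyl enzymes in a single chain, was called at 24 h. KD 24h ran from 33.1 to 38.9 with a median of 34.6 RPKM and NC 24h from 24.99 to 31.3 with a median of 28.1 RPKM, without overlap. The log2 fold change was 0.32 ± 0.10 (adjusted p = 0.039). At 72 h the groups overlapped, at 33.1 to 43.2 RPKM in KD and at 29.8, 30.1, 34.2, 35.5 and 44.3 RPKM in NC, and the log2 fold change was 0.10 ± 0.12 (adjusted p = 0.59). The 24 h call was lost without any 1 of KD replicates 1, 2, 3 and 5 and NC replicates 1 to 5 (adjusted p from 0.051 to 0.091), and in the larger cluster (0.35, adjusted p = 0.065) and the smaller (0.25, adjusted p = 0.35). Of 11 Eprs entries tested at 24 h, 2 were higher and 0 lower.

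Sars and Hars, the cytosolic seryl and histidyl enzymes, were called at 72 h. Sars ran from 20.2 to 26.0 with a median of 23.3 RPKM in KD 72h and was at 15.9, 16.6, 17.0, 17.3 and 18.9 RPKM in NC 72h, without overlap, for a log2 fold change of 0.44 ± 0.11 (adjusted p = 0.0094). At 24 h Sars spread from 9.20 to 20.6 RPKM in KD, with a median of 15.5, and from 17.6 to 21.4 RPKM in NC, with a median of 18.2, for -0.30 ± 0.18 (adjusted p = 0.24). Its call at 72 h gave 0.38 (adjusted p = 0.042) in the larger and 0.57 (adjusted p = 0.081) in the smaller cluster. Hars ran from 21.9 to 34.2 RPKM in KD 72h, with a median of 30.05, and was at 16.9, 19.7, 21.5, 23.1 and 23.6 RPKM in NC 72h, so that KD replicates 5 and 6 lay within the control range. Its log2 fold change was 0.43 ± 0.14 (adjusted p = 0.039) at 72 h. At 24 h KD ran from 23.0 to 35.9 RPKM, with a median of 29.3, and NC from 20.5 to 28.0 RPKM, with a median of 24.3, for 0.25 ± 0.13 (adjusted p = 0.17). The Hars call was lost without any 1 of KD 72h replicates 1 to 4 and NC 72h replicates 4 to 6 (adjusted p from 0.060 to 0.092). Within the clusters it was 0.51 (adjusted p = 0.010) in the larger and 0.24 (adjusted p = 0.49) in the smaller.

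Farsb, the beta subunit of the cytosolic phenylalanyl enzyme, was the only cytosolic member called lower, at 24 h. KD 24h spread widely, from 10.4 to 31.8 with a median of 19.95 RPKM, and NC 24h ran from 28.9 to 45.3 with a median of 32.9 RPKM, so that KD replicates 3 and 4 reached the control range. The log2 fold change was -0.78 ± 0.23 (adjusted p = 0.028), with -0.96 (adjusted p = 0.011) in the larger and -0.43 (adjusted p = 0.15) in the smaller cluster. It was not called without any 1 of KD replicates 1 and 5 and NC replicates 1, 5 and 6 (adjusted p from 0.054 to 0.064). At 72 h KD ran from 27.1 to 36.7 with a median of 28.3 RPKM, and NC was at 24.5, 27.0, 29.0, 36.3 and 45.3 RPKM, for -0.11 ± 0.16 (adjusted p = 0.66). Its partner Farsa, the alpha subunit, had log2 fold changes of -0.34 ± 0.27 (adjusted p = 0.38) and 0.30 ± 0.16 (adjusted p = 0.21) at the 2 times.

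Fars2, the mitochondrial phenylalanyl enzyme, showed the largest change of any synthetase at both times. KD 24h ran from 6.58 to 18.0 with a median of 10.4 RPKM, against 29.3 to 41.0 with a median of 32.7 RPKM in NC 24h. KD 72h ran from 9.07 to 17.6 with a median of 11.1 RPKM, and the NC 72h samples were at 36.0, 37.8, 38.7, 38.9 and 45.0 RPKM. Every knockdown library held less than every control sample, with 15 to 130 reads per knockdown library and 145 to 370 per control library. The 370 reads are those of NC 72h replicate 6, which may be counted double, and the other control libraries held at most 260. The log2 fold change was -1.63 ± 0.23 (adjusted p = 4.7e-04) at 24 h and -1.76 ± 0.16 (adjusted p = 8.5e-06) at 72 h, leaving 32.3% and 29.5% of the control level. In the larger cluster the values were -1.99 and -1.95, and in the smaller one -0.91 (adjusted p = 0.024) and -1.41 (adjusted p = 0.0036). All 4 transcript entries of Fars2 that were tested were lower at both times, and these entries share reads.

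Rars2, the mitochondrial arginyl enzyme, was lower at both times, opposite in direction to its cytosolic counterpart Rars. At 24 h KD ran from 4.76 to 15.95 with a median of 8.35 RPKM and NC from 11.0 to 15.6 with a median of 14.4 RPKM, and KD replicate 4 held the highest value of both groups. At 72 h KD ran from 5.90 to 9.84 with a median of 7.49 RPKM and lay below all NC samples, at 11.0, 11.0, 12.4, 14.2 and 15.8 RPKM. The log2 fold changes were -0.73 ± 0.24 (adjusted p = 0.044) and -0.76 ± 0.18 (adjusted p = 0.0072). At 24 h the larger cluster gave -1.03 (adjusted p = 0.012) and the smaller -0.13 (adjusted p = 0.80), and the call was lost without any 1 of KD replicates 1, 2, 5 and 6 and NC replicates 1, 2, 3, 5 and 6 (adjusted p from 0.055 to 0.094). At 72 h the clusters gave -0.85 (adjusted p = 0.018) and -0.62 (adjusted p = 0.16).

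**Figure D2:**
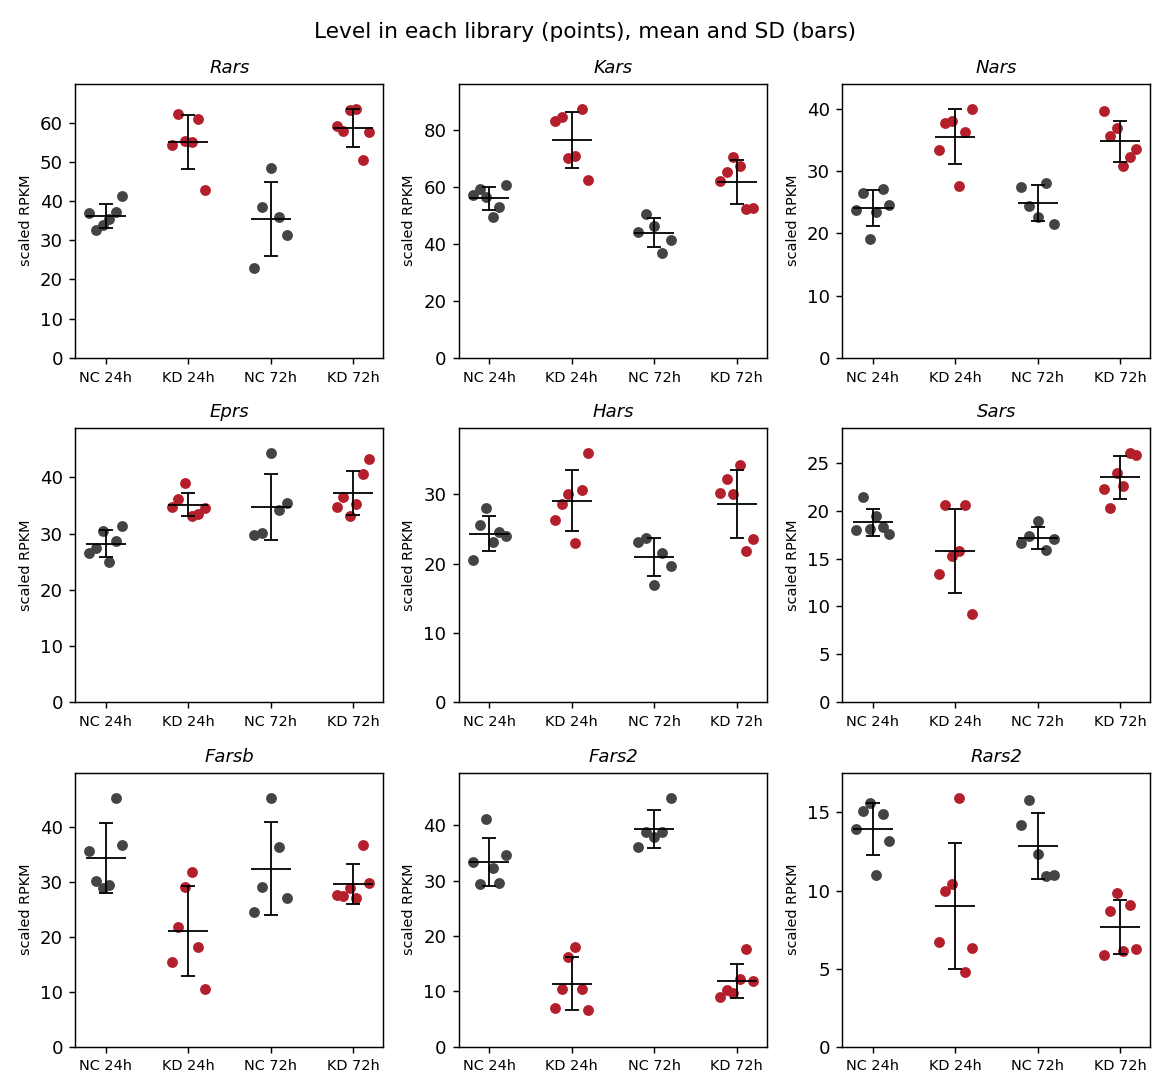
Scaled RPKM (y axis, from 0) of the 9 called synthetases in each library of the 4 groups (points; control dark grey, knockdown red), with the mean and SD as bars; NC 72h has 5 points because replicates 2 and 3 were averaged. All knockdown points of Fars2 lie at or below 18.0 and all control points at or above 29.3 RPKM.

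Among members that were not called, cytosolic log2 fold changes ran from -0.34 to 0.35 at 24 h and from -0.20 to 0.39 at 72 h. The farthest from 0 were Aars at 0.35 ± 0.15 (adjusted p = 0.099) and Farsa at 24 h, and Vars at 0.39 ± 0.28 (adjusted p = 0.34) and Tars at 0.38 ± 0.15 (adjusted p = 0.084) at 72 h. The 3′ end that stands for Aars is shared with Exosc6 on the same strand, so that reads of these genes cannot be told apart. Mitochondrial members not called ran from -0.48 to 1.22 and from -0.74 to 0.51. They included Aars2 at 1.22 ± 0.54 (adjusted p = 0.12), with at most 24 reads in a library, and Yars2 at 0.51 ± 0.23 (adjusted p = 0.12) at 24 h. Tars2, named after its values were seen, came nearest to a call at 24 h, at 0.40 ± 0.14 (adjusted p = 0.052), and 5 of its 8 tested transcript entries, which share reads, were called higher at that time and 0 at 72 h. At 72 h Nars2 was at -0.74 ± 0.34 (adjusted p = 0.14) and Cars2 at -0.63 ± 0.31 (adjusted p = 0.15), with at most 29 and 36 reads in a library. The last 500 bases of Cars2 share 78.3% of their 31-base words with Naxd on the opposite strand, those of Iars2 100% with Rab3gap2, and those of Mars 8.09% with Ddit3.

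The difference of the knockdown effect between 72 h and 24 h was tested for each gene by an interaction term. In limma 0 of 36 members were called, beside 0.251% of the 11144 genes tested, and voom on the recovered reads also called 0. At an unadjusted p under 0.05 in limma there were 3 of 20 cytosolic members and 1 of 16 mitochondrial members, beside 6991 of all 59398 entries tested. Sars came nearest, with a difference of 0.74 ± 0.21 (adjusted p = 0.14) between its value at 24 h and the higher one at 72 h. Farsb differed by 0.68 ± 0.30 (adjusted p = 0.37), Cars by 0.51 ± 0.23 (adjusted p = 0.38) and Tars2 by -0.41 ± 0.17 (adjusted p = 0.34).

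In control cells alone, 2 members changed between 24 h and 72 h, both cytosolic and both lower, beside 9.49% of all 10110 genes called. Cars, the cysteinyl enzyme, went from 12.3 ± 1.22 RPKM (SD, n = 6) to 8.67 ± 1.30 (n = 5), a log2 fold change of -0.51 ± 0.14 (adjusted p = 0.028). Kars went from 56.0 to 43.9 RPKM, at -0.36 ± 0.10 (adjusted p = 0.030). This comparison shares its control samples with both knockdown comparisons. The count fell to 0 without any 1 of NC 24h replicates 1, 2, 3 and 6 or NC 72h replicate 6. Without NC 72h replicate 1 the only call was Cars, and without NC 72h replicate 5 it was Iars2.

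The members were also read by structure and function. Synthetases belong to unrelated class I and class II catalytic folds, and of the 17 tested class I genes 1 was higher and 1 lower at 24 h, as at 72 h with 18 tested. Of the 17 class II genes 2 were higher and 2 lower at 24 h, and 4 were higher and 1 lower at 72 h. Of all genes tested 11.7% were higher and 12.0% lower at 24 h, and 10.8% and 12.5% at 72 h. Of the 8 enzymes of the multisynthetase complex 3 were higher at 24 h (Rars, Kars and Eprs) and 2 at 72 h (Rars and Kars). Among the non-enzyme scaffold proteins of this complex Aimp2 was higher at 72 h, at 0.66 ± 0.10 (adjusted p = 3.6e-04), from 43.4 to 69.0 RPKM, and Eef1e1 was at 0.19 ± 0.12 (adjusted p = 0.28). Gars, which like Kars serves both compartments, was at 0.01 ± 0.12 and -0.20 ± 0.14 and was not called.

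The ATF4 response was followed in its other targets. Of 25 tested genes among ATF4 and its targets outside the synthetases, 7 were higher and 2 lower at 24 h, and 6 were higher and 2 lower at 72 h. The shares of all genes were 11.7% higher and 12.0% lower at 24 h, and 10.8% and 12.5% at 72 h. Nupr1, a stress-induced chromatin protein, rose by 1.74 ± 0.22 at 72 h (adjusted p = 1.0e-04), and Ddit3, which encodes CHOP, by 0.66 ± 0.09 (adjusted p = 2.2e-04). Atf4 itself was higher at 24 h, at 0.53 ± 0.11 (adjusted p = 0.0036), and at 0.10 ± 0.08 (adjusted p = 0.45) at 72 h. Of the 12 cytosolic synthetases commonly listed as ATF4 targets, 2 were higher at 24 h and 2 at 72 h, and of the 8 others 2 were higher and 1 lower, then 3 higher. Asns, a widely used ATF4 target, was at -0.15 ± 0.17 and -0.08 ± 0.12.

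Promoters of 13 cytosolic and 14 mitochondrial members were found in RefSeq (GRCm38.p6, 250 bases before to 50 bases after the start). There were none for Cars, Hars, Lars, Nars, Rars, Vars, Wars, Hars2 and Pars2. The CARE element bound by ATF4 was searched as TGATGNAA on both strands, without overlap with the other motifs searched, and matches are shown because few members hold the element. It occurred in 5 of 13 cytosolic and 0 of 14 mitochondrial promoters, and in 3.97% of 32851 promoters of all genes. The element in capitals, within 10 bases on either side, reads in the direction of the gene as follows for 4 of the 5 genes.
Gars: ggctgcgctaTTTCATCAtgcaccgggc
Iars: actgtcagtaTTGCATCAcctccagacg
Tars: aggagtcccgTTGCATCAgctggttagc
Yars: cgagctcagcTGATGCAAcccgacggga
None of the 5 genes was called at either time by the entry read for it. For 1 of them, 1 of 4 tested transcript entries was called higher at 24 h and 0 at 72 h. Rars, Nars and Hars, which were called higher at 1 or both times, had no promoter here and could not be searched. Kars, Eprs and Sars, the other members called higher, had a promoter here, and it did not hold the element. Over the 5 genes with the element, the median log2 fold change was 0.01 at 24 h and 0.12 at 72 h. Their values ran from -0.17 to 0.35 and from -0.20 to 0.38.

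Further lists of the pathway are given beside the shares of all genes, which were 11.7% higher and 12.0% lower at 24 h, and 10.8% higher and 12.5% lower at 72 h. Of the mitochondrial tRNA maturation genes, 1 of 11 was lower at 24 h, and 3 of 11 at 72 h. Mto1, which modifies the wobble base of mitochondrial tRNAs, was at -1.02 ± 0.23 (adjusted p = 0.0062) and -0.95 ± 0.28 (adjusted p = 0.026), and Osgepl1 at -0.73 ± 0.22 (adjusted p = 0.029) at 72 h. No gene of the mitochondrial elongation and initiation factors was called, with Mtif3 at -0.42 ± 0.15 (adjusted p = 0.063) and Mtif2 at -0.52 ± 0.20 (adjusted p = 0.078) at 72 h. Among 5 cytosolic elongation factors Eef1g rose by 0.31 ± 0.10 (adjusted p = 0.035) and Eef2 by 0.43 ± 0.14 (adjusted p = 0.044) at 72 h, and 0 were called at 24 h. Of 9 mitochondrial biogenesis genes 2 were lower at each time, with Ppargc1a at -1.27 ± 0.23 (adjusted p = 0.0016) and Gabpa at -0.65 ± 0.18 (adjusted p = 0.018) at 72 h. None of the 3 tested genes of tRNA export and 3′ end maturation was called, where Trnt1 and Xpo5 were at -0.16 ± 0.15 (adjusted p = 0.48) and -0.12 ± 0.35 (adjusted p = 0.85) at 72 h. The 3 tested genes of glutaminyl-tRNA amidation and methionyl-tRNA formylation gave 0 calls, with Mtfmt at -0.31 ± 0.23 (adjusted p = 0.35) and Qrsl1 at 0.16 ± 0.24 (adjusted p = 0.69).

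Fars2 has by far the longest gene of the family, at chr13:36117412-36726280 on the plus strand in GENCODE M21 (GRCm38), a span of 608.9 kb. The next longest is Nars2 at 113.3 kb, and Rars2, on the plus strand at chr4:34614957-34660167, spans 45.2 kb. Spans were taken for protein-coding genes only, which gave 8972 tested genes with a span at 24 h and 9408 at 72 h. Of the 81 such genes of 400 kb or more, 66.7% were lower at 24 h and 0% higher, and their log2 fold changes had a median of -1.21. At 72 h 51.1% of 88 such genes were lower, with a median of -0.83. Of the genes under 20 kb, 7.34% and 10.7% were lower at the 2 times. Across the members, Spearman's rho of span and log2 fold change was -0.34 over 35 genes at 24 h and -0.50 over 36 genes at 72 h, and without Fars2 it was -0.28 and -0.46. These genes share their libraries, and the part of gene span in the level of Fars2 was not tested.

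**Figure D3:**
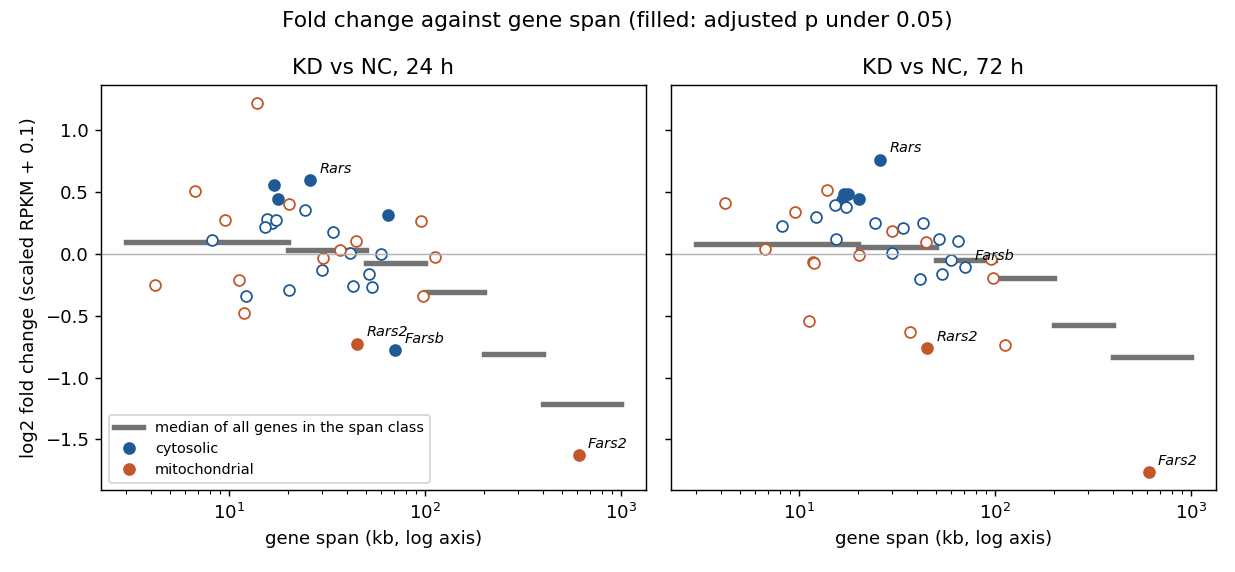
Log2 fold change of each synthetase (y axis) against the span of its gene in kb (x axis, log), at 24 h (left) and 72 h (right), filled where called. Grey bars mark the median of the tested protein-coding genes with a span in 6 span classes, the first drawn from 3 kb and the last to 1000 kb. Fars2 lies at 608.9 kb, where the grey median is -1.21 at 24 h and -0.83 at 72 h.

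Several synthetase genes start back to back with another gene, within 1000 bases. The start of Fars2 lies 114 bases from that of Lyrm4, which serves iron-sulfur cluster assembly, and Lyrm4 was lower too, at -1.03 ± 0.30 (adjusted p = 0.023) and -0.95 ± 0.27 (adjusted p = 0.022). KD 24h ran from 26.0 to 138 RPKM for Lyrm4, with a median of 79.3, and NC 24h from 140 to 167 RPKM, with a median of 154. Rars2 starts 13 bases from Orc3, a subunit of the origin recognition complex. Orc3 was at -0.11 ± 0.18 (adjusted p = 0.69) at 24 h and at -0.57 ± 0.15 (adjusted p = 0.014) at 72 h. Kars starts 75 bases from the telomere protein gene Terf2ip, which was at 0.57 ± 0.26 (adjusted p = 0.12) and 0.38 ± 0.20 (adjusted p = 0.20) and was not called. Hars and Hars2 start 197 bases apart, and Hars2 was at 0.27 ± 0.18 (adjusted p = 0.29) and 0.34 ± 0.25 (adjusted p = 0.35). Ubfd1, 88 bases from Ears2, was higher at 72 h, at 0.57 ± 0.19 (adjusted p = 0.048), where Ears2 was at 0.19 ± 0.35 (adjusted p = 0.75). Mrps12, 172 bases from Sars2, was called at neither time, and the neighbours of Wars and Yars were not tested.

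Of the members with such a neighbour, Fars2, Rars2 and Kars were called at both times, and their promoters are given below, from RefSeq in GRCm38.p6, each in the direction of the synthetase. Capitals mark the letters CCGGAAG of the ETS family, which were found in 8.86% of all promoters, and the NRF1 motif, found in 4.60%, searched on both strands. Fars2 lies on the plus strand at chr13:36117393-36117692, Rars2 on the plus strand at chr4:34614707-34615006 and Kars on the minus strand at chr8:112011305-112011604.
Fars2: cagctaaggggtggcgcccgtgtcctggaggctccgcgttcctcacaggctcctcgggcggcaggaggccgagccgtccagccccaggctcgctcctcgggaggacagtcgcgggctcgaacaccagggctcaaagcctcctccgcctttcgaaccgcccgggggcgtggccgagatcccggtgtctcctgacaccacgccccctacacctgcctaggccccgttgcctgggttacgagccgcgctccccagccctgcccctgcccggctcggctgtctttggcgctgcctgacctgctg
Rars2: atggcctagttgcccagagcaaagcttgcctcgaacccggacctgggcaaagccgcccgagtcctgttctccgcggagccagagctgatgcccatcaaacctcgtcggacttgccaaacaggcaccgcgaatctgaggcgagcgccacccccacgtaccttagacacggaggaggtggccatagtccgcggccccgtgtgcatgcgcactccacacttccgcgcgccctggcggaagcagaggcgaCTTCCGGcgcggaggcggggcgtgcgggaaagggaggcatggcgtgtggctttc
Kars: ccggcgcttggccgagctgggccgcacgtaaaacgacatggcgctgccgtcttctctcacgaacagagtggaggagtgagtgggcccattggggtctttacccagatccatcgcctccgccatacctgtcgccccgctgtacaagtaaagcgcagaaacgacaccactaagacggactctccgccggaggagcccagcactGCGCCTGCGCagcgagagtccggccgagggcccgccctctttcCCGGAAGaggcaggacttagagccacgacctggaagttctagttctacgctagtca
The ETS letters occurred in 5 of 13 cytosolic and 4 of 14 mitochondrial promoters and the NRF1 motif in 3 and 2. Rars2 held 1 match to the ETS letters, Kars 1 to each and Fars2 none to either.

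**Figure D4:**
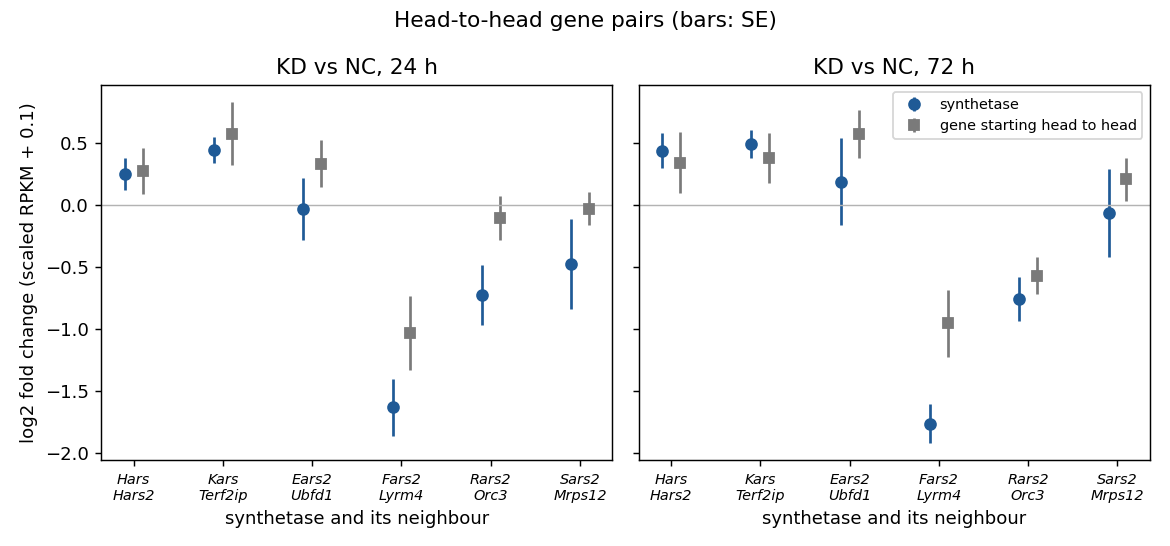
Log2 fold change (y axis) of 6 synthetases (blue circles) and of the gene that starts head to head with each (grey squares), at 24 h (left) and 72 h (right), with bars for the standard error. Fars2 and Lyrm4 lie lowest at both times, at -1.63 and -1.03 at 24 h and at -1.76 and -0.95 at 72 h.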

How the data were processed

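Libraries were made with the BRB-seq protocol, which primes on the poly(A) tail and yields reads from transcript 3′ ends. The authors used the Genomatix suite for mapping and DESeq2 for testing; the genome build, version and handling of strand for these libraries are not given in the sources used here. The deposited table holds RPKM for 168326 transcript entries in 24 libraries, and the authors scaled reads by transcript length and mapped total. The values are another unit than read counts. Entries of 1 gene overlap, so a read can enter several of them. All columns of the table were used.

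Read totals and read numbers were recovered from the RPKM steps with Python 3.11.15, for 101818 entries, and 90.9% of 22827 Ensembl entries had the GENCODE M21 length. The floor of 3 reads is worth 0.253 to 1.08 RPKM at 2 kb, which covers counting error only. In NC 72h replicate 6, 14.9% of low read numbers were odd, against 53.7% or more elsewhere, so its steps may be worth 2 per read; RPKM does not depend on this. Between NC 72h replicates 2 and 3 the squared difference was 0.342 of what counting noise gives, and for the next of 276 pairs it was 1.995.

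Entries had to reach 10 read equivalents, at median depth, in a number of samples equal to the smaller group, and 15 over all samples. An entry whose length was not recovered was left out by this filter, however high its level. Each comparison was scaled by trimmed means of log ratios, with 30% of log ratios and 5% of levels trimmed. limma 3.58.1 in R 4.3.3 (lmFit, eBayes with trend) was fitted on log2(scaled RPKM + 0.1), a scale that understates changes of low genes. Tests were two-sided with Benjamini-Hochberg adjustment over all entries, and the code was tested on simulated data. Groups and replicate numbers came from the sample titles.

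Members and lists were chosen with earlier results of these data known. Called members were described in all groups, those not called by range and the 2 farthest from 0 per class, and lists by counts and the 2 genes with the smallest adjusted p at 72 h. The motifs, neighbours, span classes and shared 3′ ends were looked at after results were seen, and Atf4 and Asns were named for their role. Alternatives are pseudocounts of 1 and 0.01, no filter, a minimum of 30 reads, the deposited scale, the replicate block, 1 entry per symbol, the highest entry of any database, voom on recovered reads, library clusters, each library on its own and each library left out. The list of editing factors and paralogues and 1 set of promoter matches are not reported here.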

Additional observations from a re-analysis of the deposited data

Results flagged for a closer look

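In 36 groups of samples of the 9 called members, 2 held a sample far from the others by Dixon's criterion, and chance gives about 1 in 20. Both were the same library, KD 72h replicate 5, one of the smaller cluster. It held the highest Farsb value of its group at 36.69 RPKM, where the gap to the next library was 0.723 of the range, and the highest Fars2 value at 17.58 RPKM, where it was 0.632. Without this library Fars2 kept its call at 72 h and Farsb was still not called.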

How the results depend on the processing

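Of 450 alternative values for the 9 called members at both times, 396 kept direction and side of the threshold, 51 lost a call and 3 changed sign. These values include Hars and Sars at 24 h and Eprs and Farsb at 72 h. They were not called in the main fit and count as kept where they stayed uncalled, so the 396 overstate how often calls were kept. Fars2 kept its call in all 24 alternatives at 24 h and all 26 at 72 h, and Rars, Kars and Nars lost theirs only in the smaller cluster alone, which holds 2 samples against 2. The causes of these differences were not tested, and the fewer samples of a cluster also widen the error. Farsb at 72 h, which was not called, changed sign on the deposited scale (0.143), in the larger cluster (0.0483) and without NC 72h replicate 4, and with 1 library left out ranged from -0.2024 to 0.02021.

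Of 7 members called at 24 h, 4 were called with no filter and 1 in the smaller cluster, and 4 to 9 with 1 library left out, with 4 without KD replicate 5 or NC replicate 1 or 5. Of 7 at 72 h, 12 were called on the deposited scale and 2 in the smaller cluster. The interaction gave 1 call, Sars, on the deposited scale. Of 2 members called in control cells over time, 1 was called with no filter, 0 in the larger cluster and 0 in the smaller, 4 with the cluster as covariate, 4 with each library on its own, and 0 to 3 with 1 library left out.

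The cytosolic median log2 fold change at 24 h, 0.14, was 0.05077 with the highest entry of any database and 0.01552 in the smaller cluster, and at 72 h it moved from 0.23 to 0.4834 on the deposited scale. The mitochondrial median at 24 h, -0.03, was 0.1109 with a minimum of 30 reads and 0.08252 in the larger cluster, and from -0.09091 to 0.0697 with 1 library left out. At 72 h, at -0.06, it was 0.1893 on the deposited scale, -0.1895 in the larger and 0.0945 in the smaller cluster, and from -0.1748 to 0.03989 with 1 library left out. The deposited scale moved the median of all genes to 0.25 at 72 h and 0.06 at 24 h, a shift shared by the 9 members at 72 h and 3 at 24 h that changed from below 0 to above it.

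Whether replicate numbers pair the samples is not stated in the labels, and 6 pairs per comparison are too few to decide it. Same-numbered libraries had mean correlations of deviations of -0.10 at 24 h, 0.04 at 72 h and 0.05 over time in NC. Over 0.1 were 1 of 6 pairs at 24 h, 2 of 6 at 72 h and 3 of 6 over time in NC. With the replicate block, in which NC 72h replicates 2 and 3 share a level, 4 members were called at 24 h, 6 at 72 h, 0 for the interaction and 0 over time in NC. Leaving out NC 72h replicates 2 and 3 together was an alternative chosen after seeing the data. Genes with few reads, such as Vars2 and Aars2, could show only large changes at this depth.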
